A study of Oryza sativa with 9 samples.

Results

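The root transcriptome of wild-type rice (Oryza sativa, cultivar Dongjin) was read from the 3 libraries WT1, WT2 and WT3, each made from roots of plants 7 days old. The plants carried no transgene or mutation named in the labels, and grew in soil at room temperature with days of 10 h and nights of 14 h. A gene model was taken as present in the root when its value reached 1 FPKM, that is 1 fragment per kilobase of model on the depth scale of the deposited files, in all 3 libraries. This rule kept 17850 of the 105692 models listed. The series holds 9 libraries in 3 groups of 3, the wild type and the lines dgk1 and OE2, which were not compared here. The 3 wild-type libraries are called biological repetitions, and the number of plants per library is not stated in the labels.

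The root of a young cereal plant joins a dividing tip, an elongation zone and a mature zone that takes up water and minerals. Dividing and growing cells are rich in ribosomes, histones and enzymes that build and loosen the wall, while the outer and inner barrier layers deposit lignin and suberin and carry the transporters for water, silicon, nitrogen, phosphate and iron. Roots also hold large families of class III peroxidases, germin-like proteins and glutathione S-transferases, which act in wall chemistry, defence and detoxification. In bulk roots, fewer cells of a type and less RNA per cell cannot be told apart.

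The libraries held 8908397, 10574056 and 12459460 fragments assigned to models. Their FPKM values summed to 770670.1, 757017 and 684244, so an average model was listed highest in WT1 and lowest in WT3. Across the 17850 members, Pearson's r of log2 FPKM was 0.968 between WT1 and WT2, 0.97 between WT1 and WT3 and 0.976 between WT2 and WT3, taken across genes, which are not independent replicates. Counts differed between every pair of libraries by more than sampling noise (chi-square per degree of freedom 17.3 to 22.4), so no pair looked like 1 library listed under both names. A member is called variable below when its highest library was at least 2-fold above its lowest. This held for 2821 of the 17850 members, or 15.8%, and for 790 of the 7748 members with a mean of at least 10 FPKM, or 10.2%. The share fell with the level, to 6.67% of the members with a mean of 100 FPKM or more. Of all members, 37.6% were highest in WT1, and 32.5% were lowest in WT2. No test stands behind this call, because 3 libraries of a single group hold no contrast.

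The most abundant described RNA of the root came from a dehydrin, a thioredoxin and a sulfate-activating enzyme, followed by ribosomal proteins, a jasmonate repressor and a salt-induced lectin. The dehydrin family gene OS03G0655400 lies on chromosome 3 from 25563660 to 25564431, as the files list it. It reached 4554, 5562 and 3709 FPKM in WT1, WT2 and WT3, a mean of 4608 ± 928 (SD, n = 3). Dehydrins are hydrophilic proteins known to protect cells during water loss. It ranked second of all members, and its lowest library stood above every library of the next described gene. That gene was thioredoxin H1 (TRXH, OS07G0186000, chromosome 7 from 4574319 to 4576229), a small cytosolic protein that reduces disulfide bonds, with 2416, 3308 and 2331 FPKM. OS03G0743900, described as a putative bifunctional 3'-phosphoadenosine 5'-phosphosulfate synthase, an enzyme that activates sulfate, followed with 2572, 2820.3 and 2063 FPKM. The ranges of these last genes overlapped, so their order is not resolved by 3 libraries.

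Below these, SG12 (OS05G0169100), a protein of the large ribosomal subunit, had 2452, 2260.3 and 1865 FPKM. A putative membrane protein (OS03G0194900) had 2379.9, 1568 and 1099 FPKM and so fell past the 2-fold line, with WT1 high and WT3 low. TIFY10B (OS07G0615200), a member of the family that represses jasmonate responses, had 2029, 1573 and 1422 FPKM. SALT (OS01G0348900), a mannose-binding lectin first known as salt-induced in rice, had 933, 2175 and 1757 FPKM. It was the other variable gene of the 25 most abundant described ones, and here WT1 was the low library. OS03G0276500 carried the name of a mediator subunit, 37c, a name that in Arabidopsis belongs to a chaperone of the HSP70 family; it had 1844, 1517 and 1193 FPKM.

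The rest of the 25 spanned several roles. Gamma-glutamylcyclotransferase (OS02G0465900), which breaks down glutathione, averaged 1493 ± 160.3 FPKM and APX1 (OS03G0285700), the cytosolic enzyme that removes hydrogen peroxide with ascorbate, 1492 ± 121 (SD, n = 3). Adenosylhomocysteinase (OS11G0455500), which clears the by-product of methylation reactions, averaged 1468 ± 271, and the vesicle-traffic GTPase ADP-ribosylation factor 2 (OS05G0489600) 1419.6 ± 7.93. These 4 genes lay within each other's spread, with the GTPase by far the steadiest. A putative beta-1,3-glucanase (OS05G0375400) reached 1342 ± 259 FPKM, an ABA/WDS induced protein (OS11G0167800) 1302 ± 383 and a haloacid dehalogenase-like hydrolase (OS03G0273800) 1226 ± 325. Multiprotein-bridging factor 1c (OS06G0592500), a transcriptional coactivator tied to heat responses in Arabidopsis, was low in WT1 and high in WT2, with 872, 1583 and 1151 FPKM. Profilin LP04, the water channel PIP1-1, an early nodulin, calmodulin-1, the initiation factors eIF1A and SUI1, a protein with an FAD binding domain, and the ribosomal proteins L27 and S21 made up the others, with the last of them at 1036 FPKM.

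**Figure D1:**
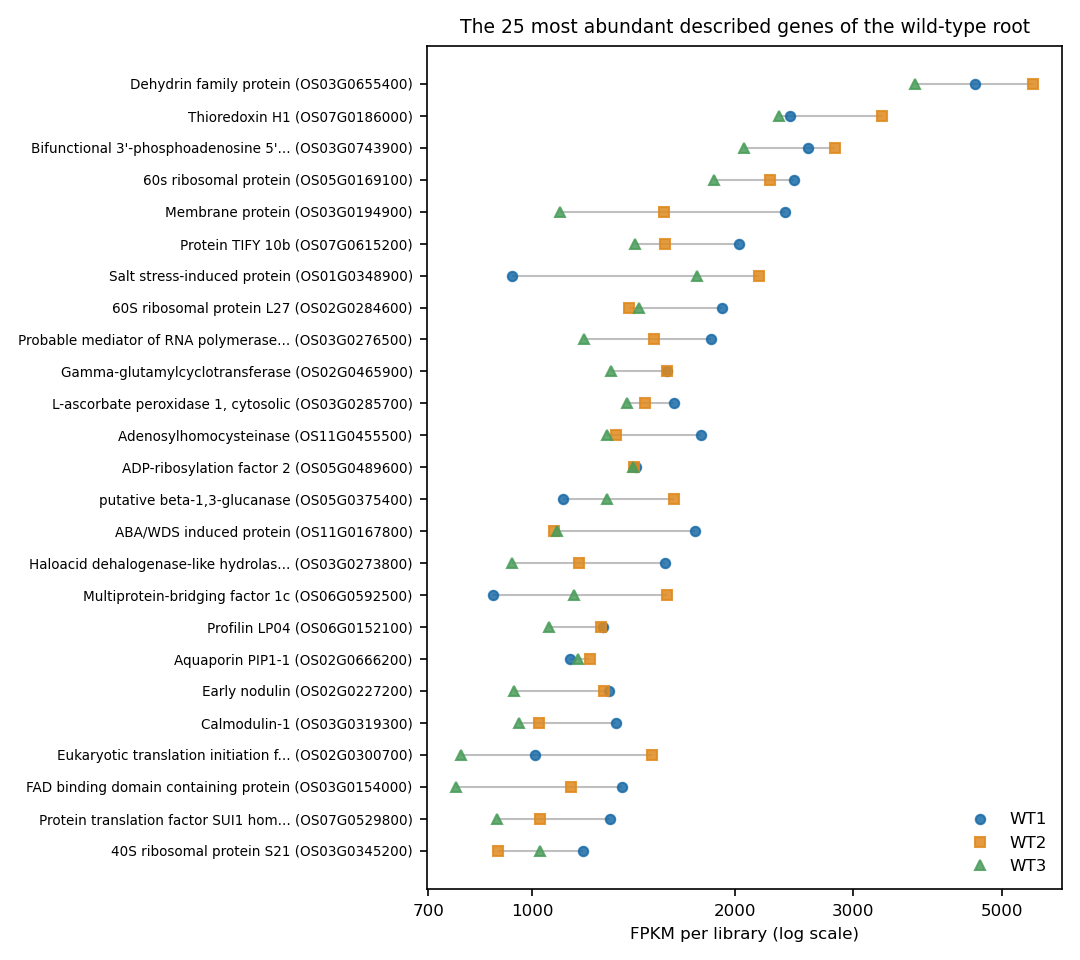
FPKM in each wild-type library (points, log axis) for the 25 described genes with the highest means, with a line from the lowest to the highest library. The dehydrin stands apart at the top, WT1 (circles) is the low library for SALT and for multiprotein-bridging factor 1c, and the 3 points of ADP-ribosylation factor 2 coincide.

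Genes of undescribed function took much of the top of the list. Of the 10 most abundant members, 7 had no described function, and of the 100 most abundant 46 had none. The highest of all was OS12G0437800 on chromosome 12 (14411366 to 14412019), at 3679.5, 5574 and 5305 FPKM. Next among these stood OS01G0615100, at 2513, 3642 and 3330.0 FPKM, and OS01G0314800, at 3301, 3239.6 and 2573. The files attach no function to these 3 genes, and none is given here. The remaining undescribed ones in the first 10 were OS03G0300400, OS07G0559700, OS07G0585500 and OS08G0331000, with means of 2675, 2668, 2651 and 2476 FPKM.

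The 10 most abundant members held 4.25% ± 0.381 of the summed FPKM (SD, n = 3), the 100 most abundant 17.8% ± 0.875 and the 1000 most abundant 55.3% ± 1.05. The first 50% of the summed value came from 769 members. No single gene, and no small group of genes, thus made up the bulk of the RNA. All members together held 98.7% of the value, with a median level of 7.6 FPKM and a range of mean levels from 1.03 to 4853. Of them, 7748 reached a mean of 10 FPKM, 1589 reached 100 and 56 reached 1000. The abundant models were short: the median length was 611 bases over the 10 highest, 865 over the 100 highest and 1478 over all members. FPKM divides by length, so a short model with the same number of fragments stands higher.

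By kind, 12075 members carried an OS identifier, here called annotated, 4607 carried only a running number and 1168 were noncoding. These kinds held 90.2%, 6.45% and 2.05% of the summed FPKM. A described function was available for 3912 of the annotated members, and a protein domain for 2496 of the numbered ones. Near the threshold, 477 members had a lowest library under 1.1 FPKM, while 493 models just missed it with a lowest library of 0.9 to 1 FPKM. An annotated model listed at 0 is not proof of a silent gene: of the annotated models that a numbered model spans, 66.8% were 0 throughout, and of the rest 32.3%. Of the numbered members, 1329 spanned an annotated model listed at 0, which is why numbered models are counted in the families below.

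Families were matched on the words of the descriptions and domains. Of the members, 8163 annotated ones had no described function and 2111 numbered ones no domain. Family genes among these can be missing, so shares and leaders hold for the matched members only. The 58 families held 1517 members and 20.7% ± 0.741 of the summed FPKM (SD, n = 3). These shares are per length: counted as shares of fragments, 12 families stood over 1.5 times higher and 7 over 1.5 times lower. Families of long models rose most, retrotransposon-derived models from 0.0499% to 0.275%, NB-ARC proteins from 0.0593% to 0.2%, cellulose synthases from 0.0642% to 0.193% and nitrogen assimilation from 0.215% to 0.543%. Families of short models fell, histones from 0.86% to 0.47%, the dehydrin family from 0.809% to 0.415% and metallothioneins from 0.212% to 0.0951%. The ribosomal proteins were the largest of them. Their 114 members took 4.37% ± 0.558 of the value, at 4.72%, 3.73% and 4.67% in WT1, WT2 and WT3, and at 2.64% when counted as a share of fragments. Of the 114, 102 were lowest in WT2, against 32.5% of all members, while 9 (7.89%) were variable, which lies near the 6.67% and 10.2% found for all members of such levels. SG12 led with 6.86% of the family's RNA, and ribosomal protein L27 (OS02G0284600), at 1913, 1392 and 1441 FPKM, came second. Their ranges overlapped, and 21 members were needed for the first 50% of the family, so no member dominated.

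Translation factors were more concentrated. Initiation factors (33 members) held 0.804% ± 0.0271 of the value, led by an eIF1A gene (OS02G0300700) with 1008, 1504 and 782 FPKM and by GOS2 (OS07G0529800), the SUI1 homolog that acts in choosing the start codon, with 1306, 1026 and 885 FPKM. WT2 was high for the first and WT1 for the second, and their means of 1098 and 1072 do not separate them. Elongation factors (12 members) held 0.172% ± 0.0198. Elongation factor 1-beta (OS07G0662500), which recharges the tRNA-carrying factor with GTP, led at 497, 428 and 479 FPKM with 37.1% of the family. It stood 1.89-fold above elongation factor 1-alpha (OS03G0177400, 217, 231 and 296 FPKM), without overlap. This sets single gene models side by side, and the labels do not say how reads shared between copies of a gene were counted. No elongation factor was variable, against 15.8% of all members.

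Protein folding and turnover had few variable members, apart from the cysteine proteases and inhibitors with 3 of 14 (21.4%, against 15.8% of all members). The 50 heat shock protein members held 0.571% ± 0.0339 of the value, 35.7% of it in OS03G0276500, followed without overlap by an hsp70 gene (OS11G0703900) at 734, 594 and 608 FPKM. Cyclophilins and other peptidyl-prolyl isomerases, which help proteins fold around proline, held 0.416% ± 0.0341, and their first members OS02G0121300 (806, 493 and 609 FPKM) and OS06G0708500 (621, 557 and 611 FPKM) overlapped. Proteasome subunits (34 members) held 0.601% ± 0.0128, at 0.592%, 0.616% and 0.595% in WT1, WT2 and WT3. Their highest member, a beta subunit (OS06G0153800) at 438, 447 and 402 FPKM, had only 9.69% of the family, and only 1 of the 34 was variable (2.94%). In the ubiquitin family the ubiquitin-S27a fusion genes OS01G0328400 and OS05G0160200 were level, at 459 ± 74 and 455 ± 66.4 FPKM (SD, n = 3). Among cysteine proteases and their inhibitors, a cystatin (OS01G0803200) at 922, 938 and 878 FPKM held 61.4% ± 1.85, ahead of cysteine proteinase inhibitor 8 (OS03G0429000) at 319.5, 305 and 232.

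Histones, which package DNA and are made mostly by dividing cells, held 0.86% ± 0.0783 over 31 members. The H4 genes OS09G0553100 (899.9, 825 and 755 FPKM) and OS10G0539500 (599.9, 544 and 486 FPKM) came first and did not overlap. Copies of histone H4 are nearly identical, and the labels do not say how shared reads were split between them. WT1 was the high library for 22 of the 31, against 37.6% of all members. Of the cytoskeleton, profilin LP04 (OS06G0152100), which binds actin monomers, held 67.2% ± 2.22 of the actin, profilin and depolymerising factor family, at 1275, 1266 and 1057 FPKM. Actin-depolymerizing factor 2 (OS03G0780400) followed at 371, 398 and 382 FPKM. Tubulins, the subunits of microtubules, were lower, with an alpha chain (OS03G0726100) at 325, 244 and 299.5 FPKM ahead of the alpha-2 chain (OS11G0247300) at 221, 165 and 191.

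**Figure D2:**
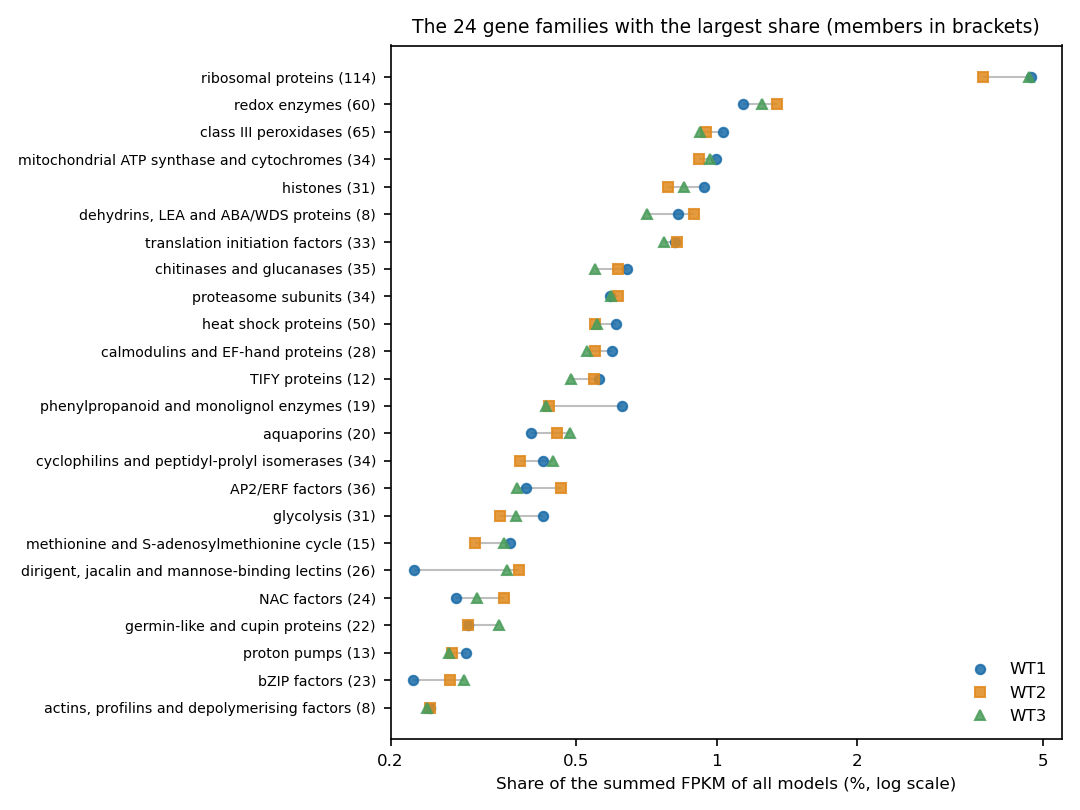
Share of the summed FPKM of all models (log axis) held by the members of each of the 24 families with the largest share, 1 point per library. Ribosomal proteins lie far to the right with WT2 (square) low, the phenylpropanoid enzymes have WT1 (circle) high, and the dirigent, jacalin and lectin family has WT1 low.

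Redox enzymes formed the second largest family by FPKM, with 60 members and 1.24% ± 0.104 of the value, though as shares of fragments the peroxidases (1%) stood above them (0.891%). Thioredoxin H1 held 29.1% ± 2.91 of it, 1.8-fold above APX1 (1622, 1469.6 and 1384 FPKM), and the ranges of these genes did not overlap. Monothiol glutaredoxin-S2 (OS01G0194600) and the copper-zinc superoxide dismutase 1 (OS03G0351500), which removes superoxide, came next at 773 ± 119 and 665 ± 27.3 FPKM (SD, n = 3). The first 3 members held 54% of the family, whose median member stood at 23.5 FPKM. Of the 60, 4 were variable (6.67%, against 15.8% of all members and 10.2% of those with a mean of at least 10 FPKM). Of the family, 21 members had means under 10 FPKM.

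Stress proteins were few and steeply ranked. The dehydrin, LEA and ABA/WDS family had 8 members with 0.809% ± 0.0921 of the value, and the dehydrin OS03G0655400 alone held 76.7% ± 5.36 of that. The ABA/WDS induced protein OS11G0167800, at 1745, 1076 and 1086 FPKM, was second, and the third, an LEA protein (OS05G0542500), reached only 33.2, 56.3 and 30.5. Metallothioneins, small cysteine-rich proteins that bind metals, held 0.212% ± 0.0113. Metallothionein 4C (OS12G0571100), at 907, 1061 and 744 FPKM, stood 3.06-fold above 2B (OS01G0974200), at 406, 227 and 254, and their ranges did not overlap.

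Signalling families were led by calcium sensors and jasmonate repressors. Calmodulins and other EF-hand proteins, which bind calcium, had 28 members with 0.558% ± 0.0359 of the value. CAM1-2 (OS03G0319300), a calmodulin-1 gene, led at 1331, 1022 and 954 FPKM, ahead of an EF hand protein (OS11G0140600) at 761, 709 and 396. Calmodulin-3 (OS01G0279300) and calmodulin-2 (OS05G0491100), at 589.5 ± 7.32 and 397 ± 16.1 FPKM, were much steadier than these (SD, n = 3). Of the 28, 9 were variable (32.1%, against 15.8% of all members). Of these 9, 7 were highest in WT1, while over all variable members 1362 of 2821 were. Among described variable members with a mean of at least 10 FPKM, 148 of 206 were. TIFY proteins held 0.531% ± 0.0386 over only 12 members, more than the AP2/ERF factors with 36. TIFY10B had 42.5% ± 4.45 of the family, and TIFY 11c (OS03G0180900), at 993, 1127 and 791 FPKM, followed without overlap. The 14-3-3 proteins, which bind phosphorylated partners, were low, with GF14-C (OS08G0430500) at 117, 105 and 121 FPKM ahead of GF14-D (OS11G0546900) at 87.9, 75.6 and 95.

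Class III peroxidases, secreted enzymes that use hydrogen peroxide to cross-link walls and polymerise lignin, were the most abundant wall-related family. Their 65 members held 0.966% ± 0.055 of the value. OS06G0547400 (655, 984 and 572 FPKM) and OS05G0134700 (673, 892 and 614 FPKM) led, both high in WT2, and OS01G0263300 (641, 559 and 641 FPKM) and OS04G0423800 (590.4, 612 and 601 FPKM) came close behind. The ranges of the first 3 overlapped, and the highest held only 10.3% ± 2.9 of the family, so no peroxidase dominated. Variable members were frequent, 22 of 65 (33.8%, against 15.8% of all members). Of these 22, 20 were highest in WT1, while over all variable members 1362 of 2821 were. Among described variable members with a mean of at least 10 FPKM, 148 of 206 were.

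Enzymes of the phenylpropanoid and monolignol route, which supplies lignin, had 19 members and 0.498% ± 0.111 of the value, at 0.626%, 0.437% and 0.431% in WT1, WT2 and WT3. A methyltransferase described as flavone 3'-O-methyltransferase 1 (OS08G0157500) led at 1362, 941 and 755 FPKM. Phenylalanine ammonia-lyase (OS02G0627100), the entry enzyme of the route, came second at 788, 465 and 436, so that its WT1 value overlapped the low end of the first. Of the 19 members, 16 were highest in WT1, against 37.6% of all members. Laccases, copper oxidases that also polymerise lignin, were all low: 12 members, none reaching 100 FPKM, with laccase-3 (OS01G0827300) at 59.1, 33.2 and 52.1 and OS01G0842500 at 61.4, 32.9 and 33.4 FPKM, which overlapped. Their share was 0.0495%, 0.0247% and 0.0345%, the widest spread of any of the 58 families. Of the 12, 7 were variable (58.3%, against 15.8% of all members).

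Among proteins that loosen or build the wall, expansins, cellulose synthases and xyloglucan endotransglucosylases had their highest share in WT1. So did 33 of all 58 families, while the arabinogalactan proteins had theirs in WT3. Expansins, which loosen growing walls, had 23 members with shares of 0.152%, 0.0907% and 0.0955%. Expansin-B2 (OS10G0555700) led at 257, 132 and 109.9 FPKM and overlapped expansin-B8 (OS03G0102500) at 161, 86.7 and 95.5. Of the 23, 8 were variable (34.8%, against 15.8% of all members), and all 8 were highest in WT1. Over all variable members 1362 of 2821 were, and 148 of 206 among described ones with a mean of at least 10 FPKM. Cellulose synthases and related proteins had shares of 0.078%, 0.0519% and 0.0628%, led by catalytic subunit 6 (OS07G0252400) at 209, 113 and 119 FPKM and subunit 1 (OS05G0176100) at 102, 64.3 and 86.4. Both belong to the kind of cellulose synthase known from primary walls. Xyloglucan endotransglucosylases, which cut and rejoin wall glycans, were steadier as a family, at 0.164%, 0.144% and 0.146%. Their leader OS08G0237000 (569.5, 556 and 529.8 FPKM) held 49.7% ± 4.2 and stood 4.2-fold above OS03G0854600 (139, 132 and 123 FPKM). Arabinogalactan proteins were low and even, with OS01G0668100 at 112, 108 and 111 FPKM over OS08G0482300 at 74.1, 74.9 and 62.2. None of their 5 members was variable, against 15.8% of all members.

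Families of defence-related proteins held several genes that moved apart from the other members. The 26 members of the dirigent, jacalin and lectin family took 0.225%, 0.377% and 0.355% of the value, and SALT made up 67.5% ± 12 of it. Dirigent protein OS11G0178800, of a family that guides the coupling of phenoxy radicals, was second at 298, 209.8 and 215 FPKM. SALT set the order of the libraries for the family's sum: 19 of the 26 members were highest in WT1, against 37.6% of all members, while SALT and the sum were lowest there. Of the 26, 8 were variable (30.8%, against 15.8% of all members). Of these 8, 7 were highest in WT1, while over all variable members 1362 of 2821 were. Among described variable members with a mean of at least 10 FPKM, 148 of 206 were. Chitinases and glucanases, which attack fungal walls and also act on the plant's own beta-glucans, had 35 members and 0.602% ± 0.0487. The glucanase OS05G0375400 (1111, 1622 and 1291 FPKM) stood 1.99-fold above chitinase 6 (OS02G0605900, 845, 758 and 418 FPKM), without overlap. Beta-1,3-glucanase OS01G0713200 came next with 888, 324 and 388 FPKM, where WT1 stood alone. Germin-like proteins held 0.309% ± 0.0281, with the genes 8-10 (OS08G0189900, 401, 465 and 511 FPKM) and 2-4 (OS02G0532500, 556, 324 and 438 FPKM) overlapping. Pathogenesis-related and inhibitor proteins were low, led by a Bowman-Birk inhibitor (OS01G0124401) that was high in WT3, at 94, 144 and 199 FPKM, over OS01G0124200 at 42.6, 67.3 and 70.5.

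Among the enzymes of secondary metabolism and detoxification, glycosyltransferases had 60 members and 0.278%, 0.242% and 0.186% of the value. OS01G0638000 (366, 346 and 197 FPKM) and OS11G0599200 (291, 307 and 153 FPKM) were both low in WT3 and overlapped. Of the 60, 19 were variable (31.7%, against 15.8% of all members), 11 of them highest in WT1 and 8 in WT2. Over all 2821 variable members, 1362 were highest in WT1 and 871 in WT2. Glutathione S-transferases, which attach glutathione to toxic compounds, held 0.204% ± 0.0224, with GSTU6 (OS10G0527400) at 452, 577 and 411 FPKM over numbered model 14448 at 249, 272 and 163, an order that turned when fragments were counted in place of FPKM. Cytochromes P450 were low for their number: 37 members held 0.104% ± 0.0151, and the highest, 734A2 (OS02G0204700), reached 141, 124 and 109 FPKM and overlapped OS12G0582700 at 53.3, 114 and 58.7. Enzymes of the 734A group are known to inactivate brassinosteroids. Of the 37, 12 were variable (32.4%, against 15.8% of all members). Lipid transfer proteins, including the cortical cell delineating proteins of root cortex, held 0.171% ± 0.027. Among the members matched by description, OS03G0103100 led at 538, 369 and 484 FPKM over OS07G0198300 at 273, 283 and 272. In this family 9 of 18 were variable (50%, against 15.8% of all members).

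Transport was carried by few genes in each class. Aquaporins, the water channels, held 0.447% ± 0.0426 over 20 members, and the plasma membrane channels PIP1-1 (OS02G0666200, 1137, 1219.6 and 1170.3 FPKM) and PIP2-1 (OS07G0448800, 916, 958 and 938 FPKM) made up most of that. The first alone held 35.8% ± 0.829, and the ranges of the pair did not overlap. The highest library of PIP1-1 was only 1.07-fold above its lowest, while the vacuolar channel TIP2-2 (OS06G0336200) ranged over 356, 603 and 492 FPKM. The first 3 aquaporins held 79% of the family. Proton pumps, which energise membranes for uptake, had 13 members with 0.276% ± 0.0125, none variable, against 15.8% of all members. A proteolipid subunit of the vacuolar pump (OS11G0169900, 613, 619 and 525 FPKM) and a plasma membrane ATPase (OS04G0656100, 648, 487 and 431 FPKM) overlapped.

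Nutrient transporters were lower than the leading water channels. OS03G0687000, described as a putative nitrate transporter, had 347, 291 and 236 FPKM and 79.7% ± 3.11 of the ammonium, nitrate and peptide-type transporters. It stood 11.3-fold above ammonium transporter 1 member 1 (OS04G0509600, 29.9, 20.2 and 27.2 FPKM), the widest gap between a first and a second member in the 58 families. Phosphate uptake RNA came almost wholly from transporters 1-1 (OS03G0150600, 134, 106 and 87.7 FPKM) and 1-8 (OS10G0444700, 114, 97.3 and 77.9 FPKM), which overlapped. The first was above the second in each library. Among metal-related genes, the silicon efflux transporter LSI2 (OS03G0107300), known from the endodermis and exodermis of rice roots, led at 237, 262 and 298 FPKM. It overlapped a heavy metal-associated domain gene (OS10G0532300) at 192, 273 and 233, and nicotianamine synthase 2 (OS03G0307200), which makes a metal chelator, had 69.6, 56.1 and 49.3 FPKM.

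Carbon and energy metabolism was led by respiration and glycolysis. Mitochondrial ATP synthase subunits and cytochromes held 0.96% ± 0.0403 over 34 members, with cytochrome c (OS05G0420600) at 915, 794 and 781 FPKM level with cytochrome c oxidase subunit 6a (OS03G0772800) at 877, 795 and 755. Glycolytic enzymes held 0.38% ± 0.0413, led by cytosolic glyceraldehyde-3-phosphate dehydrogenase 2 (OS04G0486600, 859, 578 and 679 FPKM) over aldolase 3 (OS01G0905800, 707, 551 and 552 FPKM), which overlapped. Only 1 of the 31 was variable (3.23%, against 15.8% of all members). Fermentation enzymes keep glycolysis running when oxygen is short, and the list matched for them by name held 0.103% ± 0.012. Alcohol dehydrogenase 2 (OS11G0210500), at 699.7, 614 and 462 FPKM, had 77.1% ± 3.37 of the list. It stood 5.58-fold above a gene described as alcohol dehydrogenase class-3 (OS02G0815500, 106, 98.9 and 113 FPKM). A match by name does not show that the class-3 enzyme acts in fermentation. Of the hemoglobins, hemoglobin-3 (OS06G0591600) was even, at 103, 106 and 116 FPKM, while non-symbiotic hemoglobin 2 (OS03G0226200) ran 106, 64.9 and 38.8 and overlapped it. Among genes of sucrose metabolism, the leader was cytosolic invertase 1 (OS02G0550600, 85.4, 62.2 and 76.5 FPKM) over numbered model 31916, which carries sucrose synthase, glycosyl transferase and sucrose-phosphate domains, at 32.2, 30.4 and 27.3.

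In nitrogen and one-carbon metabolism, glutamate dehydrogenase 2 (OS04G0543900, 676, 917 and 696 FPKM) led over cytosolic glutamine synthetase 1-1 (OS02G0735200, 641, 562 and 466 FPKM), the enzyme that fixes ammonium into glutamine. These ranges did not overlap, and 6 members held 0.215% ± 0.0145 in all. Adenosylhomocysteinase (1779, 1333 and 1291 FPKM) held 58.7% ± 5.19 of the methionine and S-adenosylmethionine cycle, 3.57-fold above an S-adenosylmethionine synthase (OS05G0135700) at 428, 299.7 and 506. None of the 15 members of the cycle was variable, against 15.8% of all members. Of the ethylene-making enzymes, an ACC oxidase (OS02G0771600) at 56.5, 40.7 and 55.6 FPKM stood above ACC synthase 1 (OS03G0727600) at 17.5, 13 and 8.19.

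Transcription factors showed a few very abundant genes above long tails. Numbered model 12120, with a bZIP domain and 943, 1206 and 1195 FPKM, was the highest of the bZIP, NAC, AP2/ERF, bHLH, WRKY, MYB and homeobox members and the only numbered model among the 100 most abundant members. It held 58.3% ± 3.24 of the bZIP family and stood 4.73-fold above bZIP60 (OS06G0622700, 262, 226 and 219 FPKM), a factor of the unfolded protein response in plants. NAC domain-containing protein 48 (OS01G0884300) followed at 749, 1116 and 845 FPKM, ahead of a NAC gene (OS03G0815100) at 472, 746 and 492, both high in WT2. Among AP2/ERF factors, the AP2 and B3 domain gene OS01G0693400 reached 772, 1039 and 731 FPKM, and OS03G0183300 558, 561 and 497. Of the 36 AP2/ERF members, 11 were variable (30.6%, against 15.8% of all members), 6 of them highest in WT2, 5 in WT1 and 0 in WT3. Over all 2821 variable members, 871 were highest in WT2, 1362 in WT1 and 588 in WT3.

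The other factor families were lower. A bHLH gene (OS08G0138500) had 314, 328 and 294 FPKM over OS01G0575200 at 218, 158 and 156. WRKY24 (OS01G0826400) had 368, 234 and 201 FPKM and 50.4% ± 6.15 of the WRKY family, over numbered model 1243 at 133, 136 and 96.4. A MYB gene (OS07G0688200) reached 211, 311 and 241 FPKM over numbered model 24761 at 145, 193 and 112. In each of these families the first member stood above the second without overlap in FPKM, but counted as fragments the bHLH gene OS01G0575200 came first. IAA19 (OS05G0559400), an auxin response repressor, led its family at 211, 189.7 and 157 FPKM over IAA1 (OS01G0178500) at 144, 133 and 126, and the first held only 13.3% ± 1.16. HOX1 (OS10G0561800) at 193, 102 and 99.1 FPKM led the homeobox factors over HOX8 (OS10G0377300) at 97.7, 90.9 and 69.7, with WT1 again high.

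Receptor-type families were numerous but low. The 67 leucine-rich repeat members had a median of 6.62 FPKM, and leucine-rich repeat protein 1 (OS01G0809300) stood out at 608, 530.0 and 531, 3.97-fold above numbered model 36991 at 209, 107 and 103. NB-ARC proteins, the intracellular immune receptors, had the second most members of the 58 families, 85, yet held 0.0593% ± 0.0038 of the value. Numbered model 8608 led them at 53.5, 38.1 and 21.9 FPKM over model 25426 at 21.7, 10.9 and 17.9, and 78 of the 85 were under 10 FPKM. Retrotransposon-derived models (56 members, all numbered) were low and steady, with model 5514 at 33.9, 36.9 and 30 FPKM and model 23382 at 31.3, 34.7 and 33. Of the 56, 2 were variable (3.57%, against 13.7% of all numbered members).

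Over the 58 families, the highest member held at least 50% of the RNA in 13. In 39 families the first member lay above the second in every library without overlap of their ranges, and in 19 the ranges overlapped, so that the leader is not resolved by 3 libraries. Counting fragments in place of FPKM gave 13 of the 58 another leader, among them the glutathione S-transferases, bHLH factors, Aux/IAA and auxin response factors, proteasome subunits and NB-ARC proteins, whose first members had not overlapped. Single leaders were found in families of very different size, from ACC synthases and oxidases (3 members) to the dirigent, jacalin and lectin family (26 members). The ribosomal proteins, NB-ARC proteins, retrotransposon-derived models, proteasome subunits and peroxidases lay at the other end, each with a highest member at or below 10.3% of the family.

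**Figure D3:**
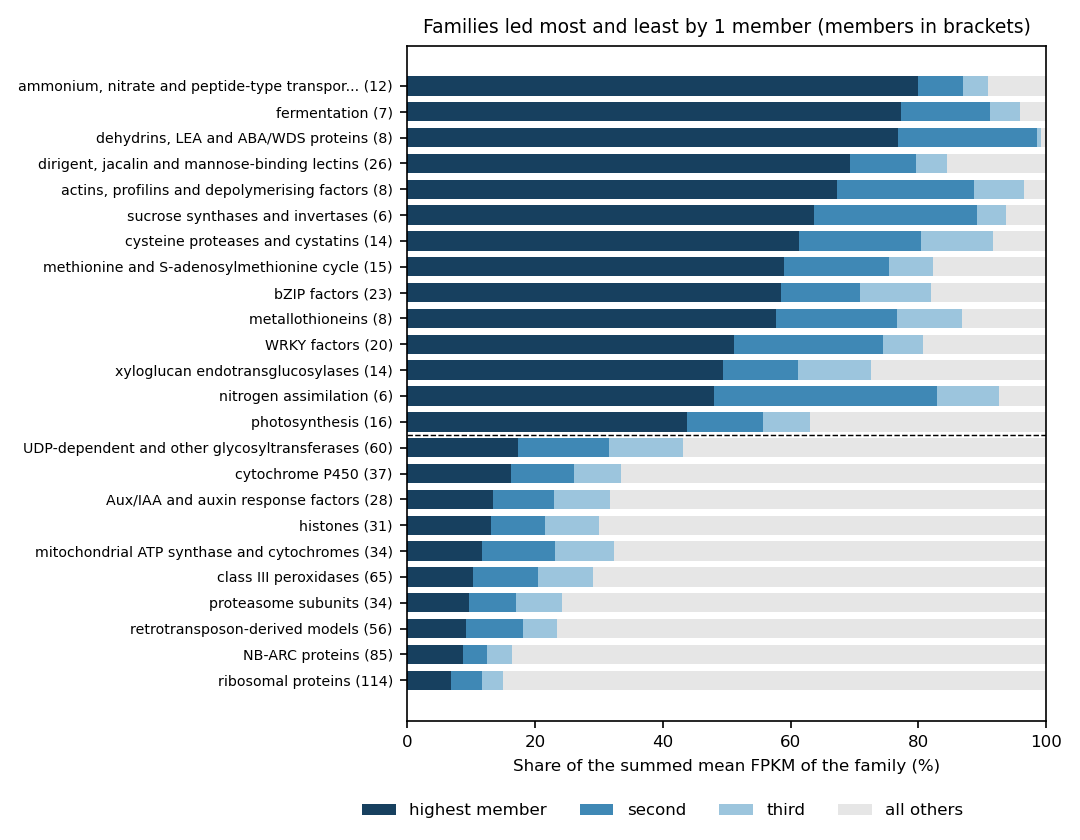
Stacked bars of the share of each family's summed mean FPKM held by its 3 highest members and by all others, for the 14 families led most and the 10 led least by 1 member among those with at least 5 members (dashed line between them). The highest member takes 79.7% of the ammonium, nitrate and peptide-type transporters and 6.86% of the ribosomal proteins.

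Spread between libraries depended on level and on the kind of model. Of the members with means of 1 to 5 FPKM, 20.2% were variable, against 6.67% of those with means of 100 FPKM or more. Noncoding members were variable in 59.3%, where counting error alone gave a median coefficient of variation of 45.4%, against 8.89% over all members. The observed median was 41.9% for the noncoding members, no larger than counting error, while for members of 1 to 5 FPKM it was 21.6% against 15.2% from counting. Of the 2821 variable members, 1362 were highest in WT1, 871 in WT2 and 588 in WT3. Among described members with a mean of at least 10 FPKM, 206 of 2516 were variable, 148 of them highest in WT1, 50 in WT2 and 8 in WT3. WT1 is also the library with the fewest fragments and the highest summed FPKM, and the part of either in these counts was not tested. Bringing the libraries to the same sum left 2832 variable members.

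**Figure D4:**
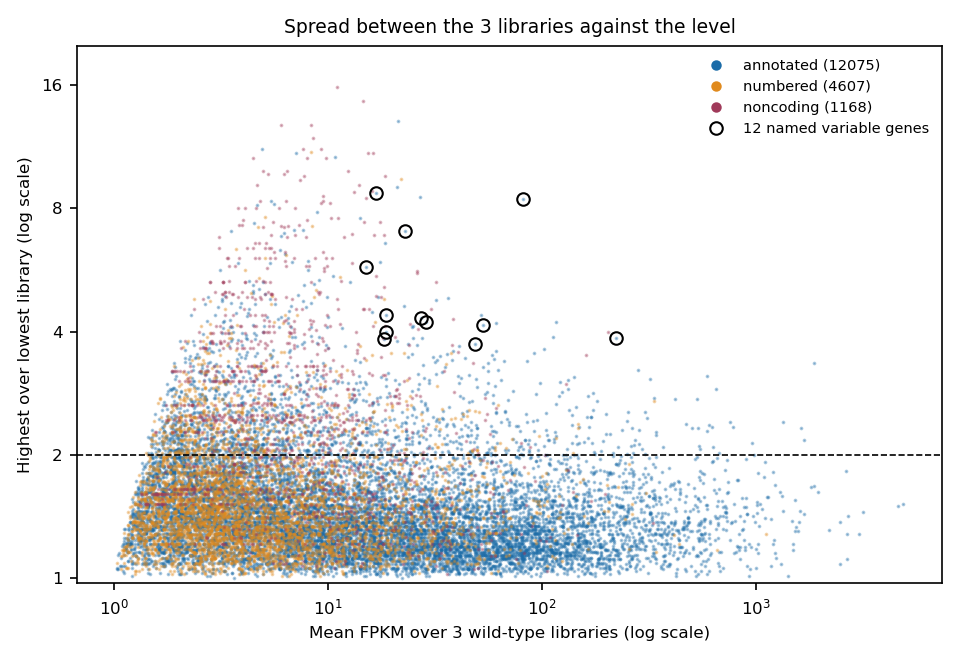
Highest over lowest library against mean FPKM (both axes log) for all 17850 members, coloured by kind of model, with the 12 named variable genes ringed and the 2-fold line dashed. Noncoding models crowd the upper left, and the ringed genes reach 8.71-fold at mean levels of 15 to 223 FPKM.

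The 12 described genes with the widest spread came from several families. A brown planthopper-inducible protein-like gene (OS06G0493100) had 3.47, 16.8 and 30.2 FPKM, an 8.71-fold range that rests on 16 fragments in its lowest library. DREB1C (OS06G0127100), a factor that switches on cold and drought genes, had 27.3, 194 and 23 FPKM, so that WT2 stood alone 8.42-fold above WT3. Laccase-10 (OS03G0273200) had 39.6, 5.62 and 23.8 FPKM, with WT2 low. WT2 was thus the far library for DREB1C and laccase-10, in opposite directions. A peroxidase (OS03G0369600) had 32.1, 7.37 and 5.58 FPKM, a xyloglucan endotransglucosylase (OS11G0539200) 52.2, 17.1 and 12.1, and expansin-B3 (OS10G0555900) 87.5, 23.4 and 35.3. In these 3 wall genes WT1 stood alone above the other libraries.

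The same held for an EF hand protein (OS11G0600500) at 51.6, 22 and 12.2 FPKM and for a bHLH gene (OS09G0455300) at 33.8, 12.4 and 8.82. A hexosyltransferase (OS07G0687900) at 32.9, 15.4 and 7.49 and a glycosyltransferase (OS01G0179600) at 30.8, 17.3 and 7.72 fell in steps instead. WT2 was high for the AP2 gene OS02G0764700 at 191, 379 and 98.5 FPKM and for a P450 gene (OS08G0508000) at 24.5, 101 and 33.2. Counting error alone gave these 12 genes coefficients of variation of 2.19% to 9.61%, against observed ones of 62.3% to 119.6%, a gap that their choice as the largest ratios favours.

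The steadiest of the abundant described genes included parts of respiration and protein targeting. The Rieske subunit of the mitochondrial cytochrome b-c1 complex (OS02G0520800) had 177, 177 and 176 FPKM, and ADP-ribosylation factor 2 had 1428, 1417 and 1413. SRP72 of the signal recognition particle (OS01G0889000), which targets proteins to the endoplasmic reticulum, had 148, 146 and 148, and the lectin R40G2 (OS07G0683900) 425, 419.7 and 426. The last of the 6 steadiest were ER membrane complex subunit 3 (OS09G0497400) at 173, 169.7 and 173 FPKM and an HMG protein (OS04G0564600) at 209, 209.5 and 206. They were picked for the smallest spreads, and the coefficient of variation of the Rieske subunit, 0.254%, lay under the 2.14% of counting error alone.

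**Figure D5:**
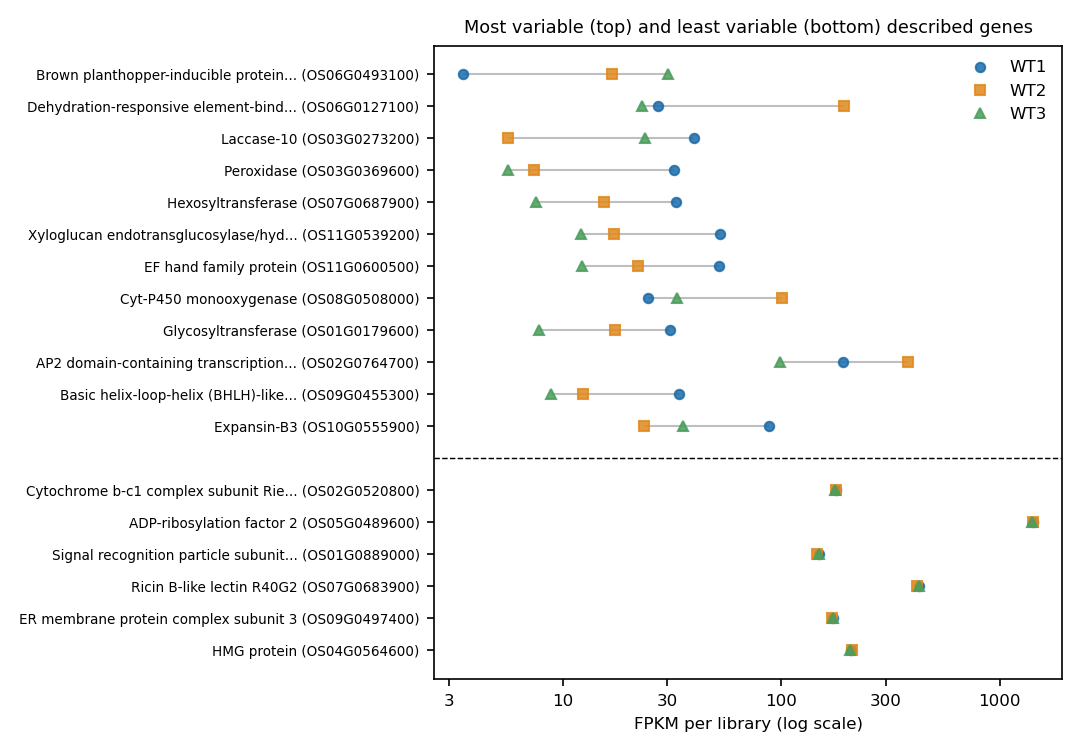
FPKM in each wild-type library (points, log axis) for the 12 described genes with the largest highest-to-lowest ratio at a mean of at least 10 FPKM (above the dashed line) and the 6 with the smallest coefficient of variation at a mean of at least 100 FPKM (below it). WT1 (circles) is the highest library in 8 of the 12, WT2 (squares) in 3 and WT3 (triangles) in 1, while the 6 steady genes show a single overlapping point each.

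The tissue label was read against 13 root marker genes, of which 7 were members and 3 were listed at 0. Besides LSI2 and the nicotianamine synthases, the members were IRT1 (OS03G0667500), the ferrous iron transporter, at 5.23, 6.93 and 7.2 FPKM, and the patterning factors SHR1 (OS07G0586900) at 22, 15.9 and 23.5 and SCR1 (OS11G0124300) at 10.5, 8.58 and 9.99. NAS1 (OS03G0307300) had 45.1, 45 and 26.9 FPKM. OS02G0662000, listed among the markers as RCc3 but without a described function, was the highest at 2109, 1044 and 879.8 FPKM. It fell past the 2-fold line, with WT1 high. Against the label, the silicon channel NIP2-1 and the ammonium transporter AMT1-3 were listed at 0, and NRAMP5 and HMA3, transporters of manganese, cadmium and zinc, were at or near 0 also in the numbered models that span them. So was OS02G0595900 (listed as NAR2.1, a nitrate transport partner), at 0, 0.124 and 0 FPKM. The numbered model over it, 15406 (a nitrate transporter accessory domain), had 0.407, 0.47 and 0.102. The numbered model over NIP2-1, 16616, had 2.02, 0.754 and 2.94 FPKM. The one over OS04G0684300 (listed as CASP1), a marker at 0, was model 26021 with 68.3, 58.2 and 51.1. Markers of the root were thus present in part.

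RNA of other cell types and states was also listed. The 48 photosynthesis models summed to 232, 293 and 355 FPKM, with 16 members and 11 models at 0. The rubisco small chain A gene (OS12G0291100) had 1.1, 1.41 and 12.3 FPKM, and the chlorophyll-binding protein OS03G0592500 had 3.72, 3.07 and 17.4, so WT3 stood alone in both. Of the 16 members 8 were variable (50%), against 15.8% of all members and 20.2% of those with means of 1 to 5 FPKM. Of these 8, 7 were highest in WT3, while over all variable members 588 of 2821 were. The highest green gene, chlorophyll a-b binding protein 1 (OS09G0346500), was even by contrast at 102, 130.2 and 123 FPKM, 3.67-fold above OS03G0165375 at 36.6, 31.7 and 28.5. Among genes of dividing cells, PCNA (OS02G0805200), the clamp of DNA replication, had 85.6, 46.9 and 68.2 FPKM and cyclin-dependent kinase B2-1 (OS08G0512600) 78.3, 46.9 and 60.5, both highest in WT1 and lowest in WT2. Cyclin-dependent kinase B1-1 (OS01G0897000) had 39, 32.6 and 31.5, lowest in WT3. The 8 mitotic models summed to 214, 133 and 172 FPKM, with both B2 cyclins listed at 0. The mitotic sum was highest in WT1 and lowest in WT2, as were the summed FPKM of laccases, cellulose synthases and ribosomal proteins. Those of expansins, phenylpropanoid enzymes, peroxidases and xyloglucan endotransglucosylases were also highest in WT1, but lowest in WT3. Of the 58 families, 40 had their highest sum in WT1 and 36 their lowest in WT3, the library with the lowest summed FPKM. As shares of the value, expansins and xyloglucan endotransglucosylases were lowest in WT2. The photosynthesis sum was lowest in WT1 and highest in WT3. The part of mitotic or photosynthesis RNA in the results of these families was not tested.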

How the data were processed

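RNA from roots was sequenced on Illumina libraries, per the labels' protocols. The deposited values are read as FPKM from the values, because neither header nor label names the unit. Multiplied by model length they fell on whole steps for 100% of models in each library, within a tolerance of 0.01. This shows counts divided by length, but cannot by itself tell FPKM from other such units. Their sums differed between libraries (770670.1, 757017 and 684244), unlike units scaled to a fixed total. Per the submitters' processing notes, CASAVA 1.8 and HISAT2 were used. The tool for counting, the build, the annotation and the use of strand were not given in the sources used here. Overlapping or antisense models, and near-identical copies, cannot be told apart. The deposited FPKM were divided by depths of 8716624, 10572419 and 13945865, which differ from the fragment totals, so they already carry a scaling between libraries.

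Sums, shares, SDs and ratios were computed with Python 3.11.15, pandas 2.3.3 and numpy 2.4.6, and checked on simulated data. Counting error was taken from the recovered fragments. Files of the other lines (6) were not used. No test was run. The members, the families and the lists of markers were chosen with earlier results of these data known, and the words that define families were adjusted to the files' descriptions. Named are the 25 highest described members, the first and second member of each family (with the next ones where they help), the 12 largest ratios at a mean of at least 10 FPKM, the 6 smallest coefficients of variation at a mean of at least 100 FPKM, and marker genes; undescribed and numbered models are named where they are among the 10 highest or lead a family. The photosynthesis genes of WT3 and the members below the second were chosen after their values were seen.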

Additional observations from a re-analysis of the deposited data

How the results depend on the processing

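The threshold set how many models counted as present: 9648 reached 5 FPKM in all 3 libraries. Weighing models by fragments in place of FPKM lowered the share of the 100 most abundant members to 15.4%, of the 10 most abundant to 3.25% and of all families to 19%, moved 45 of the 58 family shares by over 1 SD, and gave 13 of 58 families another highest member. The count of variable members was 784 at a fold of 3, 1745 on FPKM plus 1 and 790 at a mean of at least 10 FPKM. It ranged from 1026 to 1662 without 1 library, a range that pairs of libraries lower by construction. Leaving out a library gave 3, 4 and 2 families another leader, among them the initiation factors, the peroxidases and the germin-like proteins. Leaving noncoding models out of the total moved 3 family shares by over 1 SD, to 0.248% (actin family), 0.616% (proteasome) and 0.207% (cysteine proteases), and counting all models of a family moved 1, the NB-ARC proteins, to 0.0651%. The other alternatives kept the counts of members and of families with a leader within 1.5 times, and the pooled shares within 1 SD over the libraries. No paired analysis was possible because the wild type is 1 group and no test was made. Depth limits the members near 1 FPKM and the noncoding models.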

Other observations

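Several families had runs of members next to each other on a chromosome, at least 4 members with gaps of at most 100 kb, with coordinates as the files list them. The largest run held 12 of the 28 glutathione S-transferase members on chromosome 10 (20437787 to 20646880) and 53.1% of the family's RNA; GSTU6 led it at 480.0 FPKM, while the median of the run was 12.9. On chromosome 8 (5208389 to 5265340), 9 of the 22 germin-like members held 67.4% of theirs, with a median of 58.1 FPKM. Expansins B2, B3 and B6 belonged to a run of 4 members on chromosome 10 (21830158 to 21861259) that held 44.1% of expansin RNA, at means from 48.7 to 166 FPKM. On chromosome 5 (2010153 to 2082747), 6 peroxidase members ran from 6.72 to 726 FPKM. Levels thus differed widely within most runs, and least within the expansin run. Copies in a run can be alike in sequence, and the labels do not say how reads that match several of them were counted.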
